A study of Mus musculus with 6 samples.

Results

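Genomic imprinting silences 1 parental copy of a gene, so that the other copy alone is read. Many imprinted genes act on the growth of the fetus and of young tissue: the products of paternally expressed genes tend to promote growth and those of maternally expressed genes to restrain it. In rodents many of them are turned down after birth, and several are known to be read again when adult tissue such as skeletal muscle is rebuilt after injury. The 10 imprinted growth genes described here are H19, Igf2, Zdbf2, Nnat, Dlk1, Meg3, Peg3, Mest, Plagl1 and Cdkn1c. They were picked by symbol with the values of these libraries already known, all 10 were found among the 27179 genes of the count table, and their levels and fold changes are therefore given as a description and not as tests.

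Skin of female BALB/c mice aged 6 to 8 weeks was sequenced as total RNA in 4 groups. Control skin (1 library) was compared with skin of mice given bleomycin, a DNA-damaging drug used to produce a scleroderma-like fibrosis of the dermis (1 library). Further groups received bleomycin with EHP-101, a formulation of the cannabidiol derivative VCE-004.8 (1 library), or bleomycin with ajulemic acid, a synthetic cannabinoid acid (3 libraries). Every treated group thus also carried bleomycin, and the labels used here give no dose, route, duration or vehicle. Single libraries have no replicate error, and whether the 3 ajulemic acid libraries came from separate animals is not stated, so a p-value or SE here reflects the scatter of those 3 libraries, and that scatter could be technical. The SE of a comparison of single libraries borrows the same scatter.

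Libraries held 14291592 to 19837682 counts. Skin markers were abundant throughout: the basal keratin Krt5 lay between 1444 and 2288 CPM (counts scaled to a common library size of 1e6) and the collagen Col1a1 between 704.1 and 1684 CPM. Signals of other cell types also differed between libraries, and their part in the members' levels was not tested. The summed level of 8 hepatocyte transcripts was 947.5 CPM in control, 696.5 in bleomycin and 629.7 under EHP-101, but 21.15 to 129 in the ajulemic acid libraries. A sum of 7 hair follicle genes was 527 CPM in bleomycin and 275.7 in ajulemic acid replicate 2, against 5101 to 12790 in the other 4 libraries. The 8 genes of regenerating muscle, which mark newly formed fibres, summed to 8.016 CPM in control and to 68.91 CPM or more in each bleomycin-exposed library.

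The sequences around the members show what the counts can and cannot separate. H19 is a noncoding RNA on chromosome 7 (gene 14955, 142575532 to 142578146, minus strand, mm10) and its exons hold the 84 bases of the Mir675 hairpin. Igf2 (gene 16002, 142650768 to 142661035, minus strand) encodes insulin-like growth factor 2 and holds Mir483 in its introns. The mature sequences are printed because both hairpins share their primary RNA with a member; they come from RefSeq (GRCm38.p6), run 5′ to 3′, and have the seed, bases 2 to 8, in capitals.
mmu-miR-675-5p: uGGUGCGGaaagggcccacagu
mmu-miR-675-3p: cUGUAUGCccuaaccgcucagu
mmu-miR-483-5p: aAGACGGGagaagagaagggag
mmu-miR-483-3p: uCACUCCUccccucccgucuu
No seed is shared among these 4. Mir675 had 0 counts in all 6 libraries and Mir483 had 1 count in total, in bleomycin. The level of the mature miRNAs was not measured, since total RNA libraries of this kind are not made to capture them.

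Promoters are shown for Igf2, Nnat and Zdbf2, 3 of the 4 members that give the set its name; the RefSeq table (GRCm38.p6) matched 8 of the 10 members; H19 and Cdkn1c had no match. Each line is the stretch before a start site on the gene's own strand, with CG dinucleotides, the sites at which DNA methylation can carry an imprint, in capitals.
Igf2, chr7:142657497-142657746, minus strand: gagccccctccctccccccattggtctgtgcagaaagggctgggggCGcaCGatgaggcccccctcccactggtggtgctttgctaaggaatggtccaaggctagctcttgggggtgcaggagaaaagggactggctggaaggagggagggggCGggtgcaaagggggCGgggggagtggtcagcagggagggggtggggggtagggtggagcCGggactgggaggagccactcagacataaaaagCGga
Nnat, chr2:157559828-157560077, plus strand: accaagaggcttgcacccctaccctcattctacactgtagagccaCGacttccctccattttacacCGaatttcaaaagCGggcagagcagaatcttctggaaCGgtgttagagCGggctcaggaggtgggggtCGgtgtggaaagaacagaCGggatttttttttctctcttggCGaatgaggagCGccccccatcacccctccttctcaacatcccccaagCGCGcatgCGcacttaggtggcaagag
Zdbf2, chr1:63273019-63273258, plus strand: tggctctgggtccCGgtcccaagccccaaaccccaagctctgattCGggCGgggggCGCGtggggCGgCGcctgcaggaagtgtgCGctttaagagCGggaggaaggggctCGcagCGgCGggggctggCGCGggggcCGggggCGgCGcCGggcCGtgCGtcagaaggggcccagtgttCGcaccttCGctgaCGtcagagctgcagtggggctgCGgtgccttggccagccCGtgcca
The Nnat window holds 12 CG, where the median over 32851 RefSeq promoters of 250 bases is 6. The Zdbf2 window is printed to 240 bases and holds 25 CG; its full 250 bases hold 26. Igf2 has 4 start sites in the table, whose windows hold 6, 22, 10 and 1 CG, and the one printed is that with 6. Both strands of all promoter windows of the 8 members were searched for letters bound by regulators of imprinting. Igf2, Meg3, Mest and Zdbf2 have more than 1 window, and the Mest windows from 30737800 and from 30737803 overlap almost fully. The shares below are per window and are therefore not comparable with a number of genes. TGCCGC, bound by the imprint-protecting factor ZFP57, occurred in a window of Meg3, Mest, Plagl1 and the upstream start of Zdbf2 (chr1:63200108-63200357), and 8.68% of all windows hold it. GGGGCCCC, the letters bound by the PLAGL1 protein, occurred once, in the Peg3 window, against 0.889% of all windows. The CTCF core motif occurred in none of these windows and in 0.0335% of all windows. Reads in a count table do not tell which promoter or which parental copy was used, so neither was measured.

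H19 and Igf2 sit next to each other and share enhancers, with H19 read from the maternal and Igf2 from the paternal copy. In control skin H19 stood at 29.57 CPM. Its 95% Poisson interval of 26.9 to 32.43, like those below, covers counting error only. H19 was at 258.9 CPM in bleomycin, 256.7 under EHP-101 and 146.1, 201.2 and 143.2 for the ajulemic acid replicates. Control was thus the lowest library by a wide margin, bleomycin and EHP-101 were level, and the 3 ajulemic acid libraries lay between, none overlapping either neighbour. The log2 fold change of H19 was 3.13 (SE 0.34) in bleomycin against control and -0.01 (SE 0.31) in EHP-101 against bleomycin. With ajulemic acid it was -0.66 (SE 0.25) against bleomycin and -0.65 (SE 0.25) against EHP-101.

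Igf2, the ligand, followed the same order of groups. Its level was 2.825 CPM in control (2.045 to 3.806), 56.21 in bleomycin (52.55 to 60.06) and 56.99 under EHP-101 (53.4 to 60.77). The ajulemic acid libraries were at 20.39, 16.05 and 33.67 CPM, a mean of 23.4 ± 9.18 (SD, n = 3). All 5 bleomycin-exposed libraries were above control, and every ajulemic acid library was below both other exposed libraries. The log2 fold change was 4.31 (SE 0.64) in bleomycin against control, 0.02 (SE 0.54) in EHP-101 against bleomycin and -1.26 (SE 0.41) in ajulemic acid against bleomycin. Within the ajulemic acid group H19 was highest in replicate 2 and Igf2 lowest there, so the 2 neighbours did not keep one ratio between libraries. Igf2os, the antisense transcript whose exons share 98 bases with Igf2, had 0 to 7 counts, and Ins2, the insulin gene next to Igf2, had 1 count in all.

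**Figure D1:**
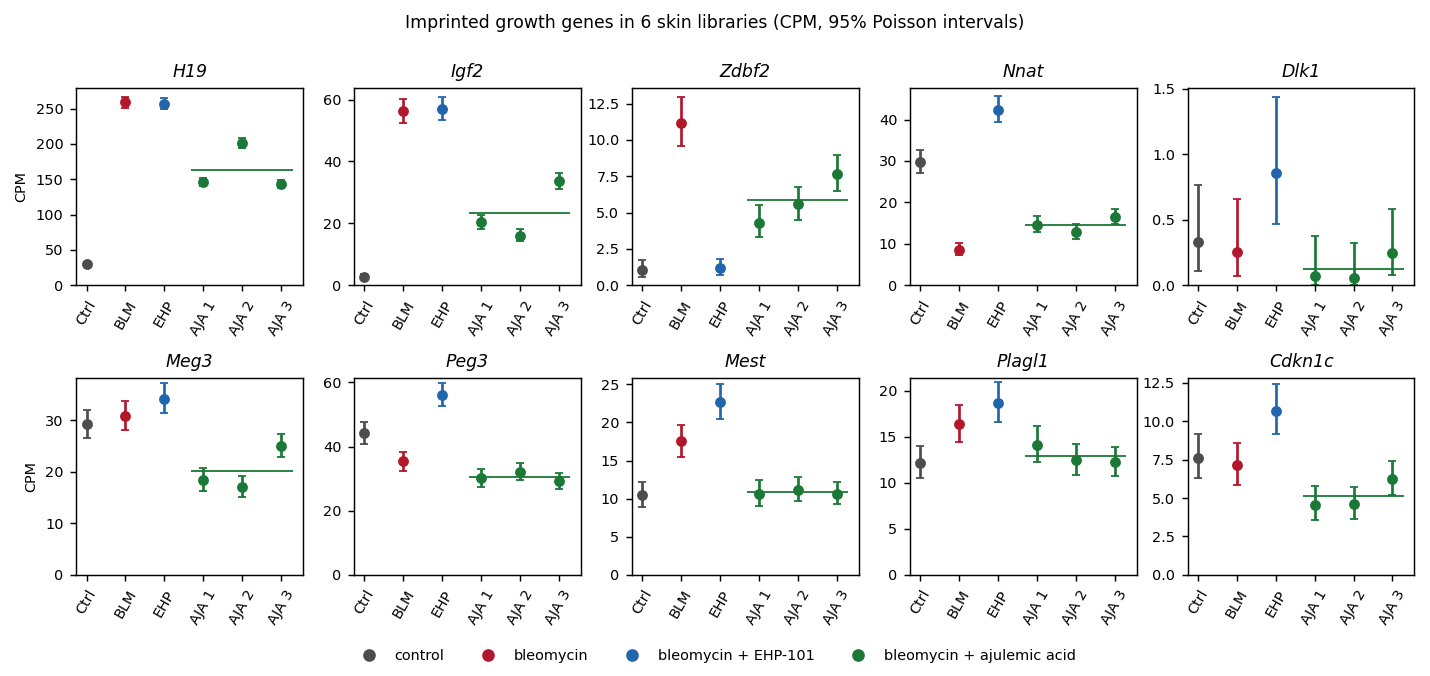
Levels of the 10 imprinted growth genes in CPM (vertical axes, each from 0) in the 6 libraries (horizontal axis: control, bleomycin, EHP-101 and ajulemic acid replicates 1 to 3); bars are 95% Poisson intervals for counting error and the green line is the ajulemic acid mean. H19 and Igf2 are low in control alone, Zdbf2 is low in control and EHP-101 (1.051 and 1.159 CPM), Nnat is lowest in bleomycin (8.599 CPM), and 7 of the 9 genes other than Dlk1 are highest in EHP-101; Dlk1 passed the filter on low counts through that library alone.

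Markers of newly formed muscle were lower in control than in every exposed library, as were H19 and Igf2. A thin muscle, the panniculus carnosus, underlies mouse skin. Myh3, the embryonic myosin heavy chain, was at 1.708 CPM in control, 103.7 in bleomycin, 156.2 under EHP-101 and 63.82, 25.85 and 59.4 for the ajulemic acid replicates. The sum of the 8 regenerating muscle genes was 8.016, 229.5, 318.5, 138.6, 68.91 and 163.3 CPM in the same order of libraries, with Mymk, the fusion factor myomaker, at 0 counts in control. All 8 were at least 2-fold higher in bleomycin than in control, where 7.75% of the 17377 genes tested were. The list was chosen with earlier results of these data known, so nothing is read from this count. Of the control sum of 8.016 CPM, Myh3, Myh8, Myog and Chrna1 made up 1.708, 4.533, 0.5913 and 0.7884 CPM. Myog, Myod1, Chrng, Mymk and Mymx thus each lay under the filter's cutoff of 0.6396 CPM in control. They could pass the filter on low counts only through exposed libraries, so a higher level there was largely built in. Mature muscle genes also differed, with a sum of 2055 CPM in control, 5569 in bleomycin, 5151 under EHP-101 and from 2489 to 4939 for the ajulemic acid replicates. Among the exposed libraries the patterns parted. In ajulemic acid replicate 2 the regenerating sum and Igf2 (16.05 CPM) were lowest of that group, and the mature sum and H19 (201.2 CPM) highest. The regenerating sum was higher under EHP-101 than in bleomycin, where H19 (256.7 and 258.9 CPM) and Igf2 (56.99 and 56.21 CPM) were level. The part of muscle in the levels of H19 and Igf2 was not tested. In bulk skin more cells of a type and more RNA per cell cannot be told apart.

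A search of all genes for the patterns closest to these members named muscle genes. Likeness was the root-mean-square difference of centred log2 CPM over the 6 libraries, among 12764 other genes whose mean log2 CPM reached 2. For Igf2 the nearest were Myh8, the perinatal myosin heavy chain (difference 0.22), Chrna1, the acetylcholine receptor alpha subunit (0.33), and Myog, the myogenic factor myogenin (0.37). Myh8 was at 4.533, 94.2, 114.1, 49.71, 28.21 and 73.67 CPM from control to ajulemic acid replicate 3, with the same highest and lowest exposed library as Igf2. For H19 the nearest were Arpp21 (0.16), Myoz2, a protein of the muscle Z-disc (0.23), and Lmod2, a leiomodin of striated muscle (0.24). Arpp21 was at 1.183 CPM in control, 12.96 in bleomycin, 11.96 under EHP-101 and from 6.478 to 7.332 for the ajulemic acid replicates. The spread of the members themselves on the same scale was 1.45 for Igf2 and 1.07 for H19. Small differences follow from picking the closest of 12764 genes over 6 libraries, so nothing is read from their size.

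**Figure D2:**
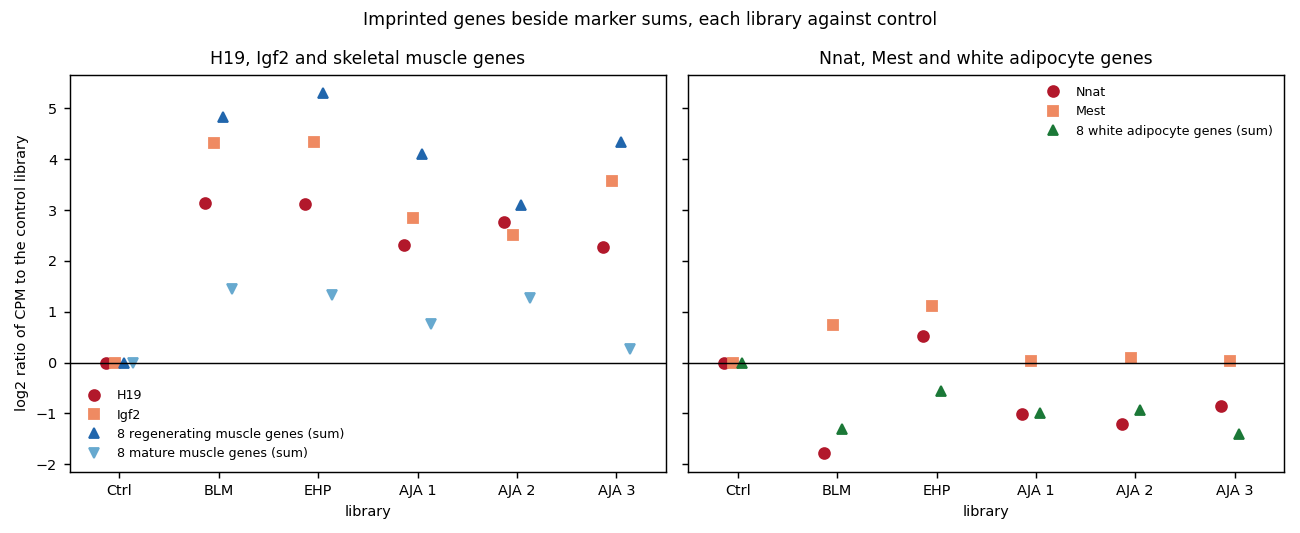
Log2 ratio of CPM to the control library (vertical axis) in each of the 6 libraries (horizontal axis) for H19 and Igf2 beside summed muscle markers (left) and for Nnat and Mest beside summed white adipocyte markers (right). H19, Igf2 and both muscle sums lie above 0 in all 5 exposed libraries. Nnat and the adipocyte sum lie below 0 in bleomycin and in the ajulemic acid libraries. In EHP-101 Nnat lies above 0 (42.41 against 29.7 CPM) and the adipocyte sum below it. Mest lies above 0 in bleomycin and EHP-101 (17.52 and 22.64 against 10.45 CPM), where the adipocyte sum lies below it.

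Zdbf2, a paternally expressed zinc finger gene (gene 73884, chromosome 1, 63273269 to 63314575) known for its part in early postnatal growth, had a pattern of its own among the members. It was at 1.051 CPM in control (0.601 to 1.71), 11.17 in bleomycin (9.57 to 12.95) and 1.159 under EHP-101 (0.698 to 1.81). With ajulemic acid it was at 4.296, 5.561 and 7.681 CPM. EHP-101 and control overlapped in their counting intervals, bleomycin was the highest library, and the 3 ajulemic acid libraries fell between the 2 levels. The log2 fold change was 3.40 (SE 0.57) in bleomycin against control, -3.26 (SE 0.56) in EHP-101 against bleomycin and -0.93 (SE 0.38) in ajulemic acid against bleomycin. It was the 1 member with a higher level in ajulemic acid than in EHP-101, by 2.33 (SE 0.49) on the log2 scale. The values rest on few reads, from 16 counts in control to 174 in bleomycin.

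Among the genes searched, whose mean log2 CPM reached 2, none matched Zdbf2 as closely as muscle genes matched Igf2. Zdbf2 itself lay just below that limit, so genes as scarce as it were not searched. The nearest were Sprr1b, a cornified envelope protein of stressed epidermis (difference 0.54), the collagen cross-linking enzyme Lox (0.72) and the monocyte chemokine Ccl7 (0.74), beside a spread of 1.22 for Zdbf2 itself. Sprr1b was at 4.402 CPM in control, 17.39 in bleomycin, 2.685 under EHP-101 and from 7.739 to 10.02 for the ajulemic acid replicates. Its neighbour in the cluster, Gpr1, was at 0.798 to 1.84 CPM and did not follow it, with 1.091 CPM in bleomycin and 1.84 in control.

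Nnat, neuronatin, is a paternally expressed membrane proteolipid found in neurons, islet cells and adipocytes (gene 18111, chromosome 2, 157560110 to 157562522). It went the opposite way to H19 and Igf2 in bleomycin. Its level was 29.7 CPM in control (27.02 to 32.57), 8.599 in bleomycin (7.205 to 10.18), 42.41 under EHP-101 (39.31 to 45.68) and 14.66, 12.9 and 16.46 with ajulemic acid, a mean of 14.7 ± 1.78 (SD, n = 3). Bleomycin was the lowest library, all ajulemic acid libraries lay above it and below control, and EHP-101 was the highest. The log2 fold change was -1.79 (SE 0.28) in bleomycin against control, 2.30 (SE 0.28) in EHP-101 against bleomycin, 0.77 (SE 0.23) in ajulemic acid against bleomycin and -1.53 (SE 0.20) in ajulemic acid against EHP-101. Blcap, the gene in whose intron Nnat lies on the opposite strand, stayed between 27.53 and 33.68 CPM.

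The genes nearest to Nnat were Lep, the adipocyte hormone leptin (difference 0.32), Sncg, gamma-synuclein, which adipocytes also make (0.33), and Trarg1, a regulator of glucose transporter traffic in fat (0.36). Lep was at 65.9 CPM in control, 21.05 in bleomycin, 62.91 under EHP-101 and 28.5, 23.68 and 20.7 for the ajulemic acid replicates. The 8 white adipocyte markers summed to 2100 CPM in control, 844.4 in bleomycin, 1432 under EHP-101 and from 789.6 to 1101 for the ajulemic acid replicates. Their part in the level of Nnat was not tested. Nnat in EHP-101 was above control, whereas the adipocyte sum was not. In ajulemic acid replicates 1 and 2 Nnat and the adipocyte sum were both above bleomycin. In replicate 3 Nnat was above it (16.46 against 8.599 CPM), whereas the adipocyte sum (789.6 against 844.4 CPM) and Lep (20.7 against 21.05 CPM) were not.

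Mest, a paternally expressed hydrolase-like protein tied to adipocyte expansion, was at 10.45 CPM in control, 17.52 in bleomycin and 22.64 under EHP-101. The ajulemic acid libraries were at 10.64, 11.18 and 10.62 CPM. They lay close together, at the level of control within counting error (8.89 to 12.2 in control), and below both other exposed libraries. The log2 fold change was 0.75 (SE 0.25) in bleomycin against control, -0.70 (SE 0.19) in ajulemic acid against bleomycin and -1.07 (SE 0.19) in ajulemic acid against EHP-101. Copg2, which shares 56 exon bases with Mest on the opposite strand, was at 79.14 to 103.9 CPM and was lowest in EHP-101, where Mest was highest.

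Peg3, a paternally expressed zinc finger protein active in muscle stem cells and in cell death pathways, was at 44.22 CPM in control, 35.36 in bleomycin, 56.08 under EHP-101 and 30.07, 32.1 and 29.18 for the ajulemic acid replicates. EHP-101 was highest and the ajulemic acid group lowest, with a mean of 30.4 ± 1.5 (SD, n = 3). Its log2 fold change was -0.32 (SE 0.21) in bleomycin against control, 0.67 (SE 0.21) in EHP-101 against bleomycin and -0.88 (SE 0.16) in ajulemic acid against EHP-101. Zim1, its maternally expressed neighbour, was at 6.899 CPM in control and 1.796 to 3.382 in the 5 exposed libraries.

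Plagl1, the zinc finger factor known to act on other imprinted genes, varied least. It was at 12.16 CPM in control, 16.36 in bleomycin, 18.67 under EHP-101 and 14.11, 12.44 and 12.22 for the ajulemic acid replicates, a range of 1.54-fold from lowest to highest. Its log2 fold change was 0.43 (SE 0.26) in bleomycin against control and -0.34 (SE 0.21) in ajulemic acid against bleomycin, neither far beyond its error.

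Cdkn1c, the maternally expressed cell cycle inhibitor p57, was at 7.622 CPM in control, 7.123 in bleomycin, 10.68 under EHP-101 and 4.568, 4.586 and 6.234 for the ajulemic acid replicates. Control and bleomycin overlapped in their counting intervals. Its log2 fold change was -0.10 (SE 0.37) in bleomycin against control, 0.58 (SE 0.37) in EHP-101 against bleomycin and -1.05 (SE 0.29) in ajulemic acid against EHP-101. In its cluster the potassium channel gene Kcnq1 was at 3.285 CPM in control, 0.963 in bleomycin, 3.173 under EHP-101 and from 2.694 to 4.389 for the ajulemic acid replicates. The long noncoding RNA Kcnq1ot1 was flat, between 361.2 and 431.1 CPM.

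Meg3 and Dlk1 share the cluster on chromosome 12, Meg3 being a maternally expressed noncoding RNA and Dlk1 a paternally expressed inhibitor of adipocyte formation. Meg3 was at 29.17 CPM in control, 30.87 in bleomycin, 34.17 under EHP-101 and 18.41, 17.03 and 25.04 for the ajulemic acid replicates. Control, bleomycin and EHP-101 were thus close, and all ajulemic acid libraries were lower. Its log2 fold change was 0.08 (SE 0.34) in bleomycin against control, -0.61 (SE 0.27) in ajulemic acid against bleomycin and -0.76 (SE 0.27) in ajulemic acid against EHP-101. Rian, the noncoding RNA downstream of Meg3, was at 19.58, 19.12 and 16.96 CPM in control, bleomycin and EHP-101 and at 11.58 to 13.47 with ajulemic acid.

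Dlk1 was at the edge of detection. It had 5 counts in control, 4 in bleomycin, 14 under EHP-101 and 1, 1 and 5 for the ajulemic acid replicates. It passed the filter on low counts through the EHP-101 library alone and so had to be higher there. Its ratios are not interpreted, and differences between the other libraries were not detectable at this depth.

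**Figure D3:**
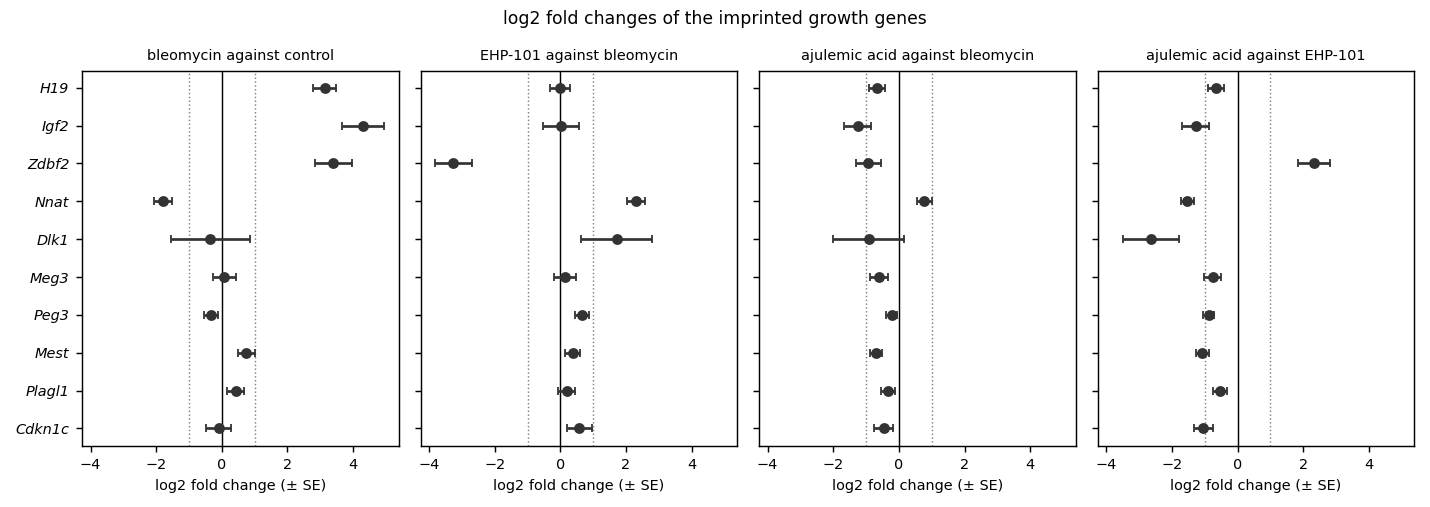
Log2 fold changes (horizontal axes, points) with their SE (bars) for the 10 imprinted growth genes in 4 comparisons; the dotted lines mark a 2-fold difference. In bleomycin against control H19, Igf2 and Zdbf2 lie beyond the upper line and Nnat beyond the lower one, and in ajulemic acid against EHP-101 every gene other than Zdbf2 lies below 0, Dlk1 among them by the filter it passed.

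Levels can be compared between genes only per length. On that scale, CPM per kilobase of exon, Nnat was first in control, at 24.5 against 11.3 for H19. In each of the 5 exposed libraries H19 was first, at 99.0 in bleomycin, where Nnat was at 7.09 and Igf2 at 13.3. Igf2 was eighth of 10 in control and second in bleomycin. Zdbf2 and Dlk1 were last or next to last in every library.

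None of the 10 members passed edgeR's quasi-likelihood test with Benjamini-Hochberg adjustment over all genes in any of the 4 comparisons, and neither did any other gene (0% of 17377 in each). The counts that follow leave out Dlk1, whose place in EHP-101 the filter fixed, a choice made after the data were seen. At an unadjusted p under 0.05 there were 5 of 9 members in bleomycin against control, where 6.8% of all genes were, and 3 in EHP-101 against bleomycin, where 1.89% were. There were 4 in ajulemic acid against bleomycin (3.83% of all genes) and 8 in ajulemic acid against EHP-101 (2.37%). DESeq2 called H19, Igf2, Zdbf2 and Nnat in bleomycin against control (0.95% of all genes), Zdbf2 and Nnat in EHP-101 against bleomycin (0.0575%), no member in ajulemic acid against bleomycin (0.593%) and Nnat in ajulemic acid against EHP-101 (0.368%). limma called none (0%). Since the members were selected with these comparisons known, nothing is read from these counts.

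Sizes were counted in the same way. In bleomycin against control 3 of 9 members were at least 2-fold higher, where 7.75% of all genes were, and 1 was at least 2-fold lower (7.1%). In EHP-101 against bleomycin 1, Nnat, was at least 2-fold higher (5.26%) and 1, Zdbf2, lower (4.02%). In ajulemic acid against bleomycin 0 were at least 2-fold higher (4.35%) and 1, Igf2, was lower (3.94%), and against EHP-101 1 was higher (1.81%) and 4 were lower (2.87%). The median log2 fold change of these 9 members was 0.43, 0.19, -0.61 and -0.88 in the 4 comparisons (0.26, 0.28, -0.64 and -0.97 with Dlk1), beside medians of all genes between -0.01 and 0.02.

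By sign alone, 6 members were higher (49.5% of all genes) and 3 lower (50.5%) in bleomycin than in control, and EHP-101 against bleomycin had 7 members higher (50%) and 2 lower (50%). By the same measure 8 members had a lower fitted level in ajulemic acid than in bleomycin (47.2% of all genes) and 1, Nnat, a higher one (52.8%); against EHP-101 8 were lower (45.5%) and 1, Zdbf2, higher (54.5%). Nothing is read from these counts either.

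The order of libraries was counted over the same 9 members. EHP-101 was the highest of the 6 libraries for 7 of them, all but H19 and Zdbf2, and for 10.1% of all genes tested. Control was the lowest for 5 members (22% of all genes). All 3 ajulemic acid libraries were below the bleomycin library for 8 members, and 24.6% of all genes shared this, while they were above it for Nnat (22.9%). They were below EHP-101 for 8 members (18.3%) and above it for Zdbf2 (19.8%). The comparisons with bleomycin and with EHP-101 share the ajulemic acid libraries and each rests on a single library on the other side. As the members were picked with these values known, nothing is read from the order of libraries.

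The other imprinted genes were set beside the members to see whether imprinted genes moved as a class. Of 60 listed, 57 were in the table and 47 were tested. edgeR called 0 of the 47 in each comparison, with 3, 1, 5 and 2 at an unadjusted p under 0.05 in bleomycin against control, EHP-101 against bleomycin, ajulemic acid against bleomycin and ajulemic acid against EHP-101; DESeq2 and limma called 0 of them. Among all genes tested, 6.8%, 1.89%, 3.83% and 2.37% reached that p. In the same order of comparisons 24, 20, 18 and 20 of the 47 were higher and 23, 27, 29 and 27 lower, where 49.5%, 50%, 52.8% and 54.5% of all genes were higher. Their median log2 fold changes were 0.03, -0.06, -0.08 and -0.03. Their summed level was 2171 CPM in control, 2295 in bleomycin, 2263 under EHP-101 and from 2134 to 2210 for the ajulemic acid replicates.

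The highest and lowest of these genes are given here for those whose mean log2 CPM reached 1; among less abundant ones some differences were larger. Kcnq1 had the lowest log2 fold change in bleomycin against control, at -1.76 (SE 0.54), followed by Zim1 at -1.66 (SE 0.58) and Sgce, epsilon-sarcoglycan, at -0.97 (SE 0.35). The highest were Ascl2 at 0.60 (SE 0.80), the survival factor Bcl2l1 at 0.52 (SE 0.21) and Zrsr1 at 0.48 (SE 0.32). In EHP-101 against bleomycin Kcnq1 was the highest, at 1.71 (SE 0.54), with the organic cation transporter Slc22a3 at 0.79 (SE 0.33), and Ascl2 the lowest at -0.79 (SE 0.80).

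With ajulemic acid and the same limit on abundance, the lowest against bleomycin were the amino acid transporter Slc38a4 at -0.72 (SE 0.21), Ppp1r9a at -0.69 (SE 0.36) and Grb10, an adaptor that restrains insulin and IGF signalling, at -0.65 (SE 0.16). Grb10 was at 69.82 CPM in bleomycin, 73.65 under EHP-101 and 46.09, 46.49 and 40.7 for the ajulemic acid replicates, so that these 3 libraries lay below the single libraries of both other exposed groups. It was also the lowest against EHP-101, at -0.73 (SE 0.16), followed by Peg10 at -0.68 (SE 0.36) and Slc38a4 at -0.65 (SE 0.21). Kcnq1 was the highest against bleomycin, at 1.86 (SE 0.48). Its place in each comparison with bleomycin rests on 15 counts in that single library, where the other libraries had 47 to 88.

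**Figure D4:**
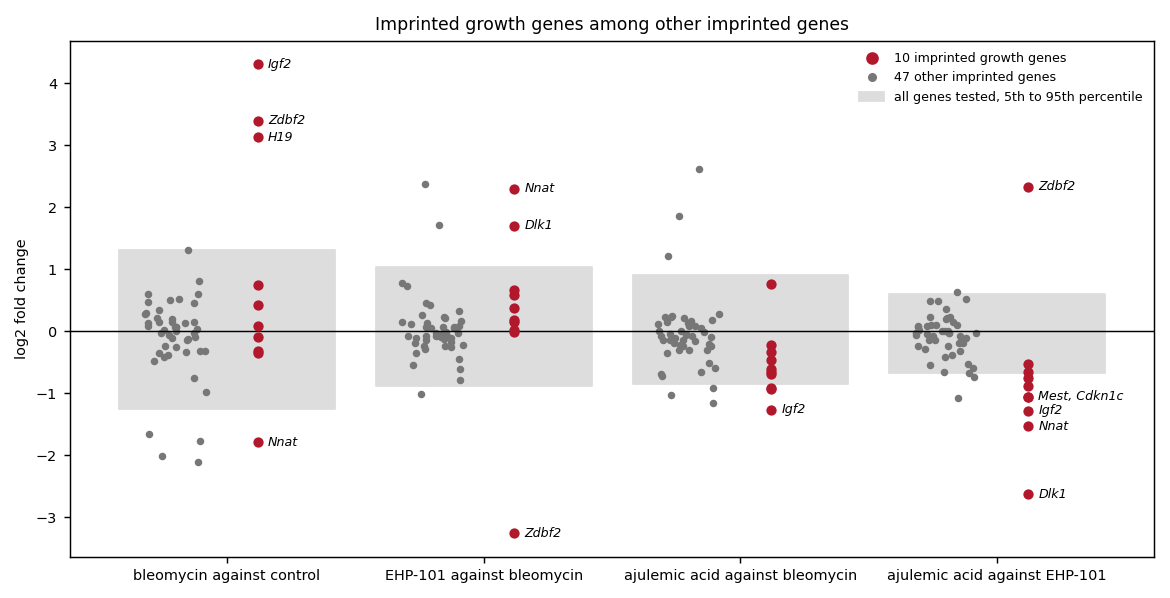
Log2 fold changes (vertical axis) of the 10 imprinted growth genes (red) and 47 other imprinted genes (grey points, spread sideways for legibility) in 4 comparisons (horizontal axis), over the 5th to 95th percentile of all genes tested (grey band). In bleomycin against control 3 members lie above the band and 1 below it, while 0 of the other imprinted genes lie above it and 4 below. Asb4, an other imprinted gene at 1.309, lies at the upper edge of the band (1.31). The members were picked with these values known, so nothing is read from the contrast.

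The receptors and binding proteins that IGF2 works with were counted in the same way. Of 20 genes of the IGF axis 19 were tested, edgeR, DESeq2 and limma called 0 in each comparison, and 2, 2, 3 and 0 had an unadjusted edgeR p under 0.05 (6.8%, 1.89%, 3.83% and 2.37% of all genes). The median log2 fold changes were 0.14, -0.12, -0.08 and -0.11, with 11, 9, 7 and 6 of the 19 higher (49.5%, 50%, 52.8% and 54.5% of all genes). Igf2r, the imprinted receptor that clears IGF2, was at 143.4 CPM in control, 158.9 in bleomycin, 183.9 under EHP-101 and from 126.3 to 195.8 for the ajulemic acid replicates, so the single libraries lay within the ajulemic acid range. Igfbp6, a binding protein with a preference for IGF2, was at 50.85 CPM in control and 11.04 to 20.98 in the 5 exposed libraries, a log2 fold change of -1.78 (SE 0.45) in bleomycin against control. Pappa2, a protease that frees IGFs from binding proteins, was at 10.91 CPM in control, 7.38 in bleomycin, 18.25 under EHP-101 and from 16.23 to 17.2 for the ajulemic acid replicates. Igfbp1 had the largest difference of the list in the 3 comparisons other than bleomycin against control but lay at or below 1.051 CPM in every library.

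Of 18 genes that keep or read imprints, 17 were tested and edgeR, DESeq2 and limma called 0 in each comparison; an unadjusted edgeR p under 0.05 was reached by 0 of them. Most had lower levels in bleomycin than in control (14 of 17, median -0.16, against 50.5% of all genes lower). Most were higher in EHP-101 than in bleomycin (16 of 17, median 0.26, against 50% of all genes higher). With ajulemic acid 13 of 17 were higher than in bleomycin (median 0.16, against 52.8% of all genes). These counts share the single bleomycin library, so they are not separate observations. Against EHP-101 the ajulemic acid group had 12 of 17 lower and 5 higher (median -0.05, against 45.5% of all genes lower). Uhrf1, which guides the maintenance of DNA methylation through cell division, was at 35.48 CPM in control, 12.64 in bleomycin, 39.97 under EHP-101 and 32.05, 17.77 and 54.11 for the ajulemic acid replicates. Its 2 lowest libraries were the 2 with the lowest hair follicle sum, and the part of follicle cells in it was not tested. Zfp57 was at 1.746 to 3.539 CPM, and Dppa3 had 0 counts in all 6 libraries.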

How the data were processed

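The authors deposited raw counts per gene from featureCounts, per the series description, in 2 tables that held the same values for the 6 libraries (0 differing values); the exon length in bases is given per the file headers. The tools named, per the submitters' processing notes, are featureCounts 1.6.1, HISAT2 2.1.0, DESeq2 1.20.0 and Trimmomatic 0.36, with mm10 as the build. How strand and multi-mapping reads were set is not given in the sources used here, and overlapping and antisense genes are therefore uncertain. The 6 sample columns of another series were not used. Symbols came from RefSeq gene numbers (25275 of 27179 genes).

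edgeR 4.0.16 in R 4.3.3 was fitted to all 6 libraries (filterByExpr with a minimum count of 10, TMM, robust quasi-likelihood F-tests, two-sided, 17377 genes tested, threshold 0.05 after Benjamini-Hochberg adjustment). Only the ajulemic acid libraries give residual degrees of freedom (2), and the single libraries were assumed to vary alike. The SE of a log2 fold change is its size divided by the root of F. CPM used TMM-scaled library sizes, and log2 CPM a prior count of 3. Pairs of ajulemic acid libraries differed beyond sampling noise (chi-square per degree of freedom at least 37.3). Alternatives used DESeq2 1.42.0 and limma 3.58.1. The scripts were tested on simulated counts. Members, marker lists and imprinted gene lists were chosen with earlier results of these data known. Named were all members, their cluster partners, the 3 highest and 3 lowest other imprinted genes per comparison whose mean log2 CPM reached 1, the 3 genes most like H19, Igf2, Zdbf2 and Nnat, and the 2 of largest difference in the IGF and imprint regulator lists; not every one is printed.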

Additional observations from a re-analysis of the deposited data

How the results depend on the processing

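The 10 members' log2 fold changes were recomputed in 4 comparisons under 12 alternatives (476 values): 475 moved by less than 1 SE, and Dlk1 in ajulemic acid against EHP-101 went from -2.63 to -3.62 without ajulemic acid replicate 3. Part of these values could hardly move. Leaving out an ajulemic acid replicate alters a ratio of single libraries little beyond its scaling, and the robust option left the fold changes as they were. None of the alternatives covers variation between animals in the groups of 1 library. H19 in EHP-101 against bleomycin, at -0.01, was 0.07 with total counts only and 0.02 without ajulemic acid replicate 2. The medians of the members moved by less than the spread between replicates, also without Dlk1 (chosen after seeing the data), and 0 other imprinted genes were called under each alternative. Counts of all genes called did move. DESeq2 called 165 genes in bleomycin against control, 10 in EHP-101 against bleomycin, 103 in ajulemic acid against bleomycin and 64 in ajulemic acid against EHP-101, where edgeR called 0. With no filter on low counts edgeR called 41 in ajulemic acid against bleomycin and 16 in ajulemic acid against EHP-101. Leaving out 1 ajulemic acid replicate gave 0 to 177 calls in bleomycin against control, 0 to 92 in ajulemic acid against bleomycin, 0 to 67 in ajulemic acid against EHP-101 and 0 in EHP-101 against bleomycin; the highest counts came without replicate 3. The causes were not tested. No paired analysis was possible because the groups share only replicate number 3. Groups of 1 library and counts as low as 1 (Dlk1) set the limit on precision.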
